A study of Mus musculus with 18 samples.

Results

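The genes described here were 9 immediate early genes, Fos, Fosl1, Jun, Junb, Egr1, Egr2, Ier2, Ier3 and Atf3, together with Srf, in mouse embryonic stem cells (mESCs) on hydrogels of different stiffness. They were chosen by symbol, through the Ensembl identifiers of the count table, and all 10 were found among its 46078 genes. The cells were E14 mESCs, an established line labelled 129m wt, and all groups shared that line, serum with the cytokine LIF, a fibronectin coating and 24 h on the gel. The gels were StemBond polyacrylamide hydrogels of a soft kind, with a stiffness near 750 Pa, and a stiff kind, near 160 kPa. Each kind was made with low, mid or high AHA (6-acrylamidohexanoic acid), the co-factor that tethers extracellular matrix to the gel, at 16, 48 and 80 mM respectively. Each of the 6 combinations had 3 libraries of total RNA, and the comparisons asked how stiffness and tethering strength change expression.

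Immediate early genes are transcribed within minutes of a stimulus without new protein synthesis. Growth factor signals reach many of them through ERK, which phosphorylates the ternary complex factors ELK1, ELK3 and ELK4 that sit beside SRF on a CArG box, while actin dynamics reach SRF through the MRTF coactivators. FOS and JUN proteins then pair into AP-1, EGR proteins bind GC-rich sites, and in mESCs the FGF and ERK arm of this response accompanies exit from the naive state.

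Gene counts per library ranged from 5850621 to 9290261, of which 4087001 to 6503452 lay in protein-coding genes. Replicate 1 of the soft, high AHA group was left out because ERCC spike-ins took 1.37% of its counts against 0.607 to 0.725% in the others, which left 17 libraries, 8 soft and 9 stiff. The 8 mESC markers summed to between 2952 and 3144 CPM on soft and between 2777 and 2916 CPM on stiff substrates. Of these, 6 were called higher and 1 lower on soft. The 8 fibroblast markers summed to between 120 and 204 against between 170 and 245 CPM. Most of that sum was Col1a1, with a mean of 109 on soft against 155 CPM on stiff substrates. Of the 6 fibroblast markers tested, Col1a1 alone was called, lower on soft, while 3 had log2 fold changes above 0 and 3 below. Of 7 primitive endoderm markers 0 were called and 6 had log2 fold changes above 0. Of 5 tested trophoblast markers 1 was called higher and 1 lower on soft. The part of these marker differences in the results was not tested. By the index names in the file header, the i7 index was 701, 702 or, in 1 library, 703 on soft and 703, 704 or 705 on stiff substrates, so that apart from index 703 the effects of index and stiffness cannot be told apart.

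Levels are in CPM, which relates the counts of a gene to all protein-coding counts of its library after TMM scaling, and levels of different genes are compared only as CPM per kb of exon. On that scale Ier2, a nuclear regulator induced by growth factors, had the highest mean over the 17 libraries at 70.8, followed by Srf at 44.1, Jun at 27.7 and Junb at 21.2. Fosl1 at 8.69, Atf3 at 7.27, Egr1 at 6.43, Ier3 at 5.01 and Fos at 4.25 were lower. Egr2, a zinc finger factor known for hindbrain patterning, was lowest at 0.284 and had 0 to 10 counts per library.

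The promoters of Fos, Atf3, Ier3 and Srf are shown because the first 3 of these genes had the largest averaged differences between stiffnesses among the 9 genes tested, and Srf carries the site that its own protein binds. Sequences are the 250 bases before the start site in RefSeq (GRCm38.p6), on the strand of the gene and 5′ to 3′. They lie at chr12:85473640-85473889 on the plus strand (Fos), chr1:191183334-191183583 on the minus strand (Atf3), chr17:35821463-35821712 on the plus strand (Ier3) and chr17:46556163-46556412 on the minus strand (Srf). The Atf3 window lies inside the gene as annotated by GENCODE, whose 5′ end is at base 191218039, and that end was not searched. Capitals mark matches to 4 patterns searched on both strands: the CArG box by its consensus, TGACGT (the core of the cAMP response element), TGANTCA (an AP-1 site) and GCGNGGGCG (an EGR site).
Fos: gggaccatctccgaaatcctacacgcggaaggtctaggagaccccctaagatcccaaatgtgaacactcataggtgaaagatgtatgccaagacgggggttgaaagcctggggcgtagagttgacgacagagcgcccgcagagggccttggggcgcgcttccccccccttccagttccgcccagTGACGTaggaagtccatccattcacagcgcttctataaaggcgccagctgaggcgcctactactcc
Atf3: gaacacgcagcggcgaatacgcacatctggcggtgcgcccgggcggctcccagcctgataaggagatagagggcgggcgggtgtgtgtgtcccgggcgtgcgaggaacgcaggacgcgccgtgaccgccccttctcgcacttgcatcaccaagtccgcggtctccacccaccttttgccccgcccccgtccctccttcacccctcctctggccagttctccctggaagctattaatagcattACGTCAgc
Ier3: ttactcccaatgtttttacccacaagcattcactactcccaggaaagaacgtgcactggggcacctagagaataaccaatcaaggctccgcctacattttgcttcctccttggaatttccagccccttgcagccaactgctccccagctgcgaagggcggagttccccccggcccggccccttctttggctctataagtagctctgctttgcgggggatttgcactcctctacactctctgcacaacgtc
Srf: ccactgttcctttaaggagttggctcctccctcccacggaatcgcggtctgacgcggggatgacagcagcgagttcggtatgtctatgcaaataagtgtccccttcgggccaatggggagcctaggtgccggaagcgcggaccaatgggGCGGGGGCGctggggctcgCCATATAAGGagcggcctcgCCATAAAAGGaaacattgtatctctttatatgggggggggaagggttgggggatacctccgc

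The Srf window held 2 CArG boxes, from 82 to 73 and from 62 to 53 bases before the start, and an EGR match from 101 to 93 bases before it. Fos held TGACGT from 66 to 61 bases before its start, and Atf3 held it on the opposite strand from 8 to 3 bases before the start listed. No pattern matched in the Ier3 window, and no CArG box in the Fos or Atf3 window. This says only that these letters are not in the 250 bases searched, and bases further upstream were not searched. Of 32851 RefSeq windows of this length, 1.47% held a CArG box, 6.47% TGACGT, 6.75% TGANTCA and 4.70% GCGNGGGCG. A window was listed for 7 of the 10 genes, so that Fosl1, Egr1 and Ier2 are named only. Jun and Junb matched none of the patterns, and Egr2 matched a CArG box in 4 of its 5 listed windows, of which 3 overlap and hold the same CArG box and the same TGACGT. Matches of different patterns did not overlap within a window.

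Averaged over the 3 AHA concentrations, Fos and Atf3 were higher and Ier3 and Fosl1 lower on soft than on stiff substrates. These were 4 of the 9 genes tested at an adjusted p under 0.05 (edgeR's quasi-likelihood test with Benjamini-Hochberg adjustment), where 8.64% of the 13443 tested genes were called. With 2 members called higher and 2 lower, the background by direction was 4.02% higher and 4.63% lower on soft. The median log2 fold change of the 9 was -0.01, beside 0.00 over all tested genes. Srf, Jun, Junb, Egr1 and Ier2 were not called, and Egr2 was below the count filter.

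**Figure D1:**
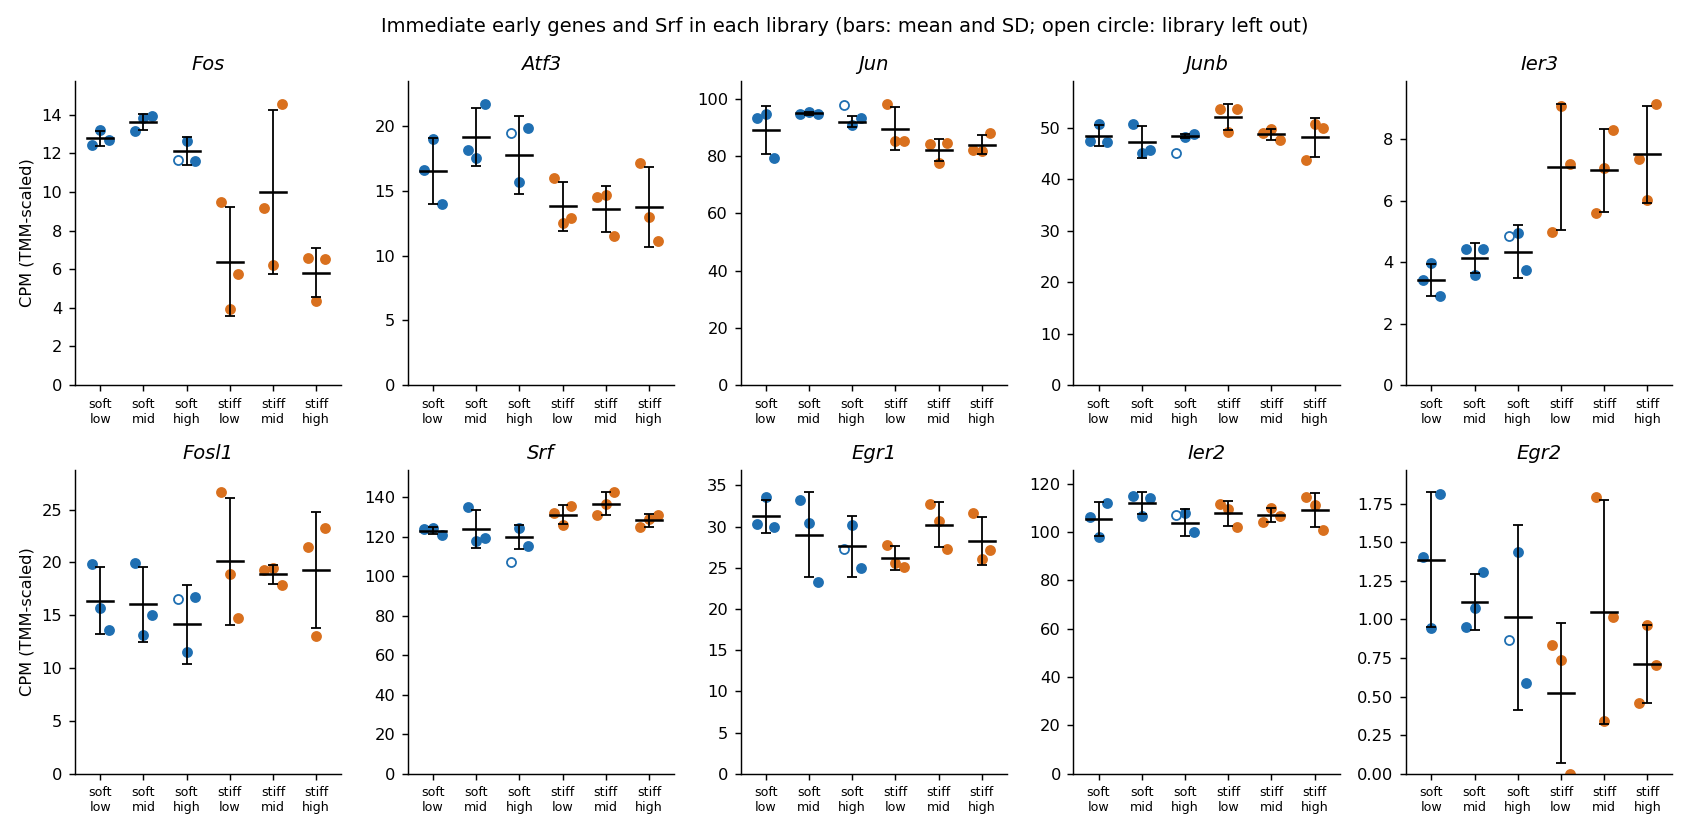
CPM (TMM-scaled, y axis from 0) of the 10 genes in each library, by stiffness and AHA concentration (blue soft, orange stiff), with the group mean and SD of the libraries used; the open circle is the library left out. All soft Fos values lie between 11.6 and 13.9 CPM and 8 of 9 stiff values lie below them, while every soft Ier3 value lies below every stiff one.

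Fos (ENSMUSG00000021250, chr12:85473890-85477273 on the plus strand in the GENCODE annotation of GRCm38) encodes the founding member of the FOS family, which binds DNA paired with a JUN protein. On soft substrates its level was 12.4, 13.2 and 12.7 CPM at low, 13.1, 13.8 and 13.9 CPM at mid and 12.6 and 11.6 CPM at high AHA. On stiff substrates it was 9.49, 3.93 and 5.75 CPM at low, 9.19, 6.21 and 14.6 CPM at mid and 6.60, 4.34 and 6.52 CPM at high AHA. In 8 of the 9 stiff libraries Fos lay below every soft library, and the exception, replicate 3 of the stiff, mid AHA group, lay above them all.

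Mean Fos was 12.9 ± 0.752 CPM over the 8 soft libraries and 7.40 ± 3.28 CPM over the 9 stiff ones (SD). The averaged log2 fold change was 0.81 ± 0.14 (SE), which is 1.76-fold, with adjusted p = 1.74e-06 in edgeR. The group means were ordered soft mid (13.6), soft low (12.8), soft high (12.1), stiff mid (9.99), stiff low (6.39) and stiff high (5.82), and the libraries of neighbours in that order overlapped throughout.

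Over the 9 stiff libraries, whose AHA groups had different means, the SD of Fos was 44.3% of the mean where counting alone gives 16.0%, and over the 8 soft libraries it was 5.82% where counting gives 11.7%. Libraries of separate samples can exceed counting noise for any gene. The lowest stiff values, 3.93 and 4.34 CPM, were 16 and 18 counts in the 2 shallowest libraries, and within groups Fos had a correlation with gene counts of r = 0.44 over 17 libraries. The part of depth in this spread was not tested. The fit gave all groups a shared spread, so the SE and adjusted p of Fos do not reflect the wider spread of stiff libraries.

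Atf3 (ENSMUSG00000026628, chr1:191170296-191218039, minus strand), a stress-induced factor of the ATF/CREB family that can also pair with JUN, showed a smaller difference. Its levels on soft substrates were 16.6, 19.1 and 14.0 CPM at low, 18.2, 17.6 and 21.8 CPM at mid and 15.7 and 19.9 CPM at high AHA. Stiff libraries had 16.0, 12.5 and 12.9 CPM at low, 14.6, 14.7 and 11.5 CPM at mid and 17.2, 13.0 and 11.1 CPM at high AHA. The 2 sets overlapped, with 5 of 8 soft libraries above every stiff one.

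Mean Atf3 was 17.9 ± 2.46 CPM over the 8 soft and 13.7 ± 2.03 CPM over the 9 stiff libraries (SD), and soft exceeded stiff by 0.36 ± 0.11 on the log2 scale (SE; edgeR adjusted p = 0.0130). Group means were ordered soft mid (19.2), soft high (17.8), soft low (16.6), stiff low (13.8), stiff high (13.8) and stiff mid (13.6), and libraries of neighbouring groups overlapped. The call was lost without replicate 3 of the soft, high AHA group (adjusted p = 0.101) or without replicate 3 of the stiff, high AHA group (adjusted p = 0.0578). Within groups Atf3 had a correlation of r = 0.57 with the mitochondrial share of gene counts over 17 libraries, beside -0.74 for Junb, -0.54 for Srf and between -0.22 and 0.39 for the other tested members. That share was 6.21 to 7.25% on soft and 5.55 to 7.17% on stiff substrates. Its part in the differences of Atf3 and Srf was not tested. Among 12 genes of the integrated stress response, the ATF4 pathway in which Atf3 is a known target, Asns and Cebpg were called higher on soft, none was called lower, and the median log2 fold change of the 12 was 0.20, where 4.02% of all tested genes were called higher. None of the 12 was called at a single AHA concentration, and their median was 0.06 at low, 0.22 at mid and 0.22 at high AHA. This list was chosen with earlier results of these data known.

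Ier3 (ENSMUSG00000003541, chr17:35821684-35822923, plus strand) encodes a small protein known as an ERK substrate that modulates survival. On soft substrates it was 3.41, 3.96 and 2.91 CPM at low, 4.44, 3.59 and 4.42 CPM at mid and 4.96 and 3.74 CPM at high AHA. Stiff libraries had 5.00, 9.10 and 7.19 CPM at low, 5.61, 7.07 and 8.30 CPM at mid and 7.37, 6.02 and 9.17 CPM at high AHA. Every soft library was below every stiff library, although the nearest pair was close at 4.96 and 5.00 CPM, and 0.841% of tested genes separated in this way with soft lower.

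Mean Ier3 was 3.93 ± 0.657 CPM over the 8 soft libraries and 7.20 ± 1.48 CPM over the 9 stiff ones (SD). Its log2 fold change was -0.85 ± 0.18 (SE, adjusted p = 0.000137 in edgeR), or 0.554 of the stiff level. The values rested on 16 to 52 counts per library, and the SD of 16.7% on soft and 20.6% on stiff was near the 21.1% and 16.3% that counting gives. The order of group means was stiff high (7.52), stiff low (7.09), stiff mid (6.99), soft high (4.35), soft mid (4.15) and soft low (3.43), and the libraries of neighbouring groups within each stiffness overlapped.

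**Figure D2:**
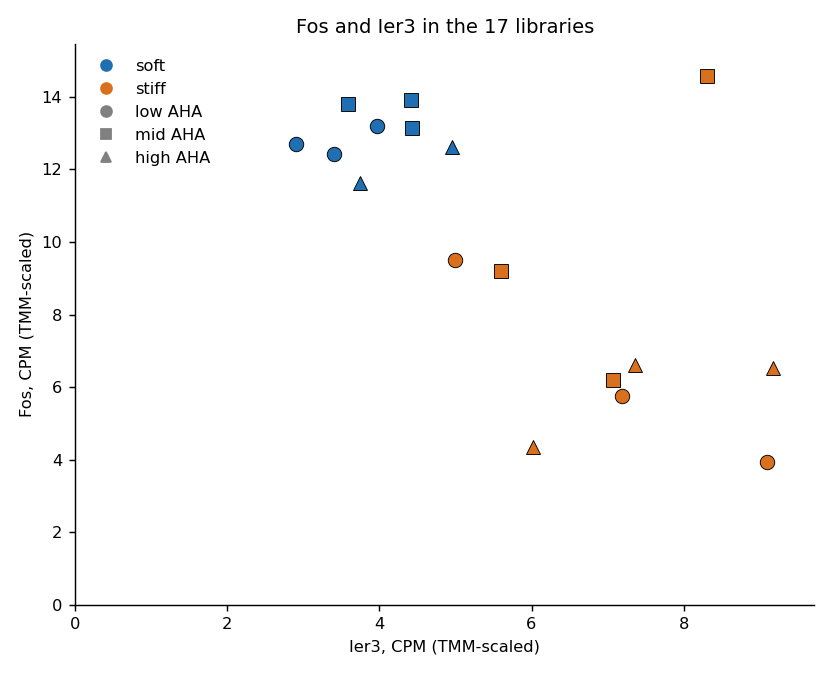
Fos against Ier3 in the 17 libraries (both axes CPM, TMM-scaled, from 0; colour marks stiffness and shape AHA concentration). The soft libraries form a compact set at high Fos and low Ier3, the stiff ones spread from 3.93 to 14.6 CPM in Fos, and the stiff, mid AHA library at 14.6 CPM has 8.30 CPM of Ier3.

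The library with the highest Fos level did not stand with the soft libraries in Ier3, as the plot of both genes shows. Its 8.30 CPM of Ier3 was among the 3 highest of all libraries used, and its 11.5 CPM of Atf3 was below every soft library.

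Fosl1 (ENSMUSG00000024912, chr19:5447547-5455946, plus strand) encodes FRA1, a FOS-family protein without a transactivation domain whose gene is itself a known AP-1 target. Its level was between 11.5 and 20.0 CPM on soft (median 15.4) and between 13.0 and 26.6 CPM on stiff substrates (median 19.3), with wide overlap. The means were 15.7 ± 3.06 CPM (SD, n = 8) and 19.4 ± 4.14 CPM (SD, n = 9), and the log2 fold change was -0.34 ± 0.12 (SE, adjusted p = 0.0487 in edgeR). With DESeq2 its adjusted p was 0.225, and leaving out single libraries ended the call in 12 of 17 cases. Of its exon bases, 57.2% overlap exons of Ccdc85b on the other strand, whether reads were counted by strand was not stated, and Ccdc85b itself differed by -0.27 ± 0.11 (log2, SE; edgeR adjusted p = 0.134), so the Fosl1 value is uncertain.

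Srf (ENSMUSG00000015605, chr17:46548329-46556175, minus strand), the MADS-box factor of the group, was slightly lower on soft substrates without passing the test. Its level was 124, 125 and 121 CPM at low, 135, 118 and 119 CPM at mid and 124 and 115 CPM at high AHA on soft substrates. On stiff substrates it was 132, 126 and 136 CPM at low, 131, 137 and 143 CPM at mid and 125, 129 and 131 CPM at high AHA. In 7 of the 8 soft libraries Srf was below every stiff library, although the nearest pair was close at 124.5 and 124.8 CPM. The exception was replicate 1 of the soft, mid AHA group. The means were 123 ± 5.98 CPM (SD, n = 8) and 132 ± 5.49 CPM (SD, n = 9), and the log2 fold change was -0.11 ± 0.039 (SE, adjusted p = 0.0570 in edgeR). Its group means ran from stiff mid (137) over stiff low (131), stiff high (128), soft mid (124) and soft low (123) to soft high (120), with overlap between neighbours. With all 18 libraries it was called (adjusted p = 0.0124), as it was in 5 of 17 cases when a single library was removed, replicate 1 of the soft, mid AHA group among them (adjusted p = 0.0206), so Srf lay at the threshold.

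Jun, which forms AP-1 as a homodimer or with FOS proteins, was between 79.4 and 95.6 CPM on soft (median 94.0) and between 77.6 and 98.4 CPM on stiff substrates (median 84.7). The soft library at 79.4 CPM lay far below the other soft ones, and the stiff library at 98.4 CPM above all others. The log2 fold change was 0.11 ± 0.046 (SE, adjusted p = 0.140 in edgeR), with a 95% interval of 0.02 to 0.20. Junb, a JUN-family protein that activates AP-1 sites less strongly than JUN, averaged 47.9 ± 2.09 CPM over the soft and 49.6 ± 3.00 CPM over the stiff libraries (SD), and the interval of its log2 fold change was -0.16 to 0.07 (adjusted p = 0.733 in edgeR).

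Egr1, a zinc finger factor often used as a readout of ERK activity, averaged 29.5 ± 3.63 CPM over the 8 soft libraries and 28.2 ± 2.77 CPM over the 9 stiff ones (SD). Its log2 fold change was 0.05 with an interval of -0.10 to 0.21 (adjusted p = 0.783 in edgeR). Ier2 averaged 108 ± 6.22 CPM on soft against 108 ± 4.67 CPM on stiff substrates (SD), with a log2 fold change of -0.01 and an interval of -0.09 to 0.07 (adjusted p = 0.931 in edgeR). Over the 6 groups the mean of Egr1 ran from 26.2 to 31.3 CPM, of Ier2 from 104 to 112, of Jun from 82.2 to 95.0, of Junb from 47.1 to 52.1 and of Fosl1 from 14.1 to 20.1. The Egr1 and Ier2 intervals leave out differences of the size seen in Fos or Ier3. Egr2 had 54 counts over the 8 soft and 34 over the 9 stiff libraries. With a lower count filter its log2 fold change was 0.70 ± 0.45 (SE, adjusted p = 0.469 in edgeR). It was not called, and what difference could be detected at this depth was not tested.

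At single AHA concentrations fewer of the 9 genes passed. At low AHA, where 3.02% of tested genes were called, Fos (0.95 ± 0.23, adjusted p = 0.00511) and Ier3 (-1.02 ± 0.30, adjusted p = 0.0372) were called in edgeR (log2 fold change ± SE). At high AHA, where 0.885% were called, Fos was called (1.03 ± 0.26, adjusted p = 0.0210), while DESeq2 gave no adjusted p for Fos, Ier3, Fosl1, Atf3, Egr1 or Junb. At mid AHA, where 2.87% were called, 0 members were called in edgeR, DESeq2 called 0 but gave Fos and Ier3 no adjusted p, and 5 of the 9 had an unadjusted p under 0.05, as did 13.5% of all tested genes.

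Fos at mid AHA was the smallest of its 3 differences, at 0.46 ± 0.22 (SE, adjusted p = 0.311 in edgeR). Without replicate 3 of the stiff, mid AHA group, the library at 14.6 CPM, it was 0.84 and called (adjusted p = 0.0481), while without replicate 2 of that group it was 0.19 (adjusted p = 0.852), and 16 of 17 fits that omitted a library made no call. Ier3 had log2 fold changes of -0.75 ± 0.29 at mid and -0.79 ± 0.32 at high AHA (SE), neither past the threshold (adjusted p = 0.163 and 0.296). The low AHA calls rested on replicates 2 and 3 of the stiff group, since without either both were lost: for Fos, adjusted p reached 0.0934, and for Ier3, 0.219. Ier3 was also not called there when any 1 of the 3 soft, low AHA libraries was left out, and Fos at high AHA was not called without either soft library or without replicate 2 or 3 of the stiff group (adjusted p up to 0.176). Whether a stiffness difference changed with AHA was tested by the interaction, where 0.0298% of genes were called and 0 members were (lowest adjusted p = 0.838 in edgeR, for Jun; 0 with an unadjusted p under 0.05, beside 6.64% of all tested genes).

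**Figure D3:**
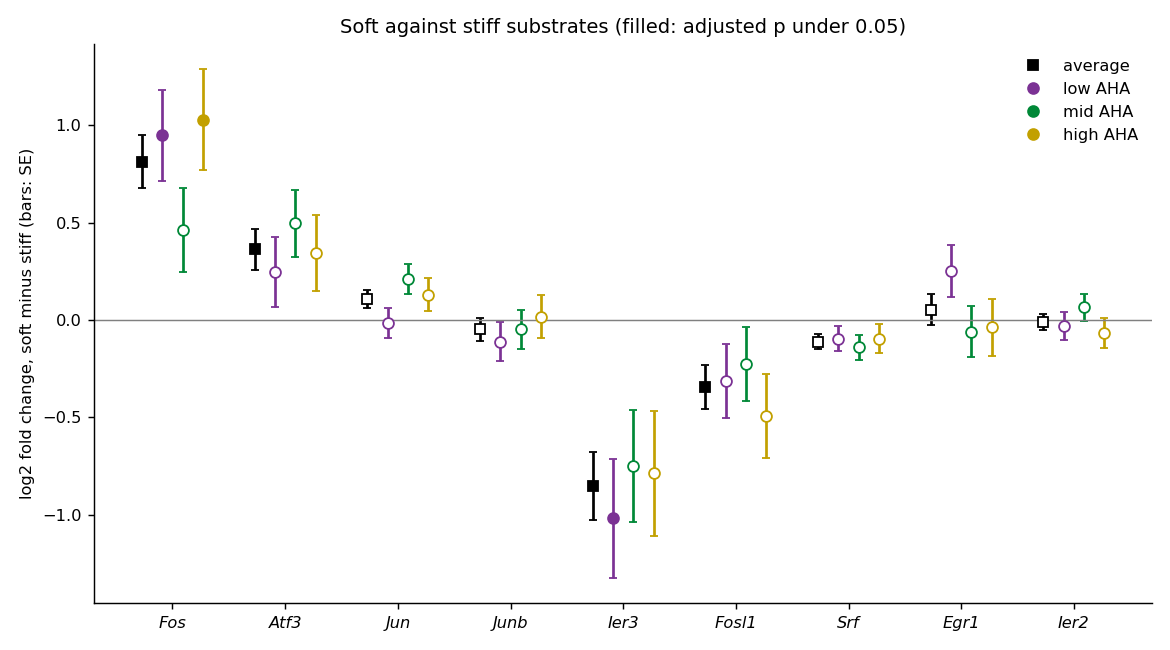
Log2 fold change of soft against stiff substrates for the 9 tested genes, averaged over AHA (squares) and at each AHA concentration (circles), with SE; filled symbols have an adjusted p under 0.05. Fos lies above 0 and Ier3 below 0 in all 4 comparisons, from 0.46 to 1.03 and from -0.75 to -1.02, while Jun, Junb, Egr1 and Ier2 change sign between them.

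AHA concentration itself moved none of the 9 genes past the threshold, with 0 called in each of 6 comparisons in edgeR. On soft substrates the background was 0.245% for high against low, 0% for mid against low and 0.0669% for high against mid AHA, and 0 members had an unadjusted p under 0.05 in any of them. On stiff substrates it was 0.00744% for high against low, 0% for mid against low and 0.00744% for high against mid AHA. Fos was the single member with an unadjusted p under 0.05 there, in mid against low (0.58, adjusted p = 0.905) and high against mid AHA (-0.73, adjusted p = 0.693), beside 5.01% and 5.79% of all tested genes; these comparisons share the mid AHA libraries, the one at 14.6 CPM included. On soft substrates the log2 fold changes of the 9 lay between -0.22 and 0.36.

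Within groups, Fos and Fosl1 were the most variable of the 9. The SD of log2 CPM around the group means was 0.39 for Fos and 0.33 for Fosl1, higher than in 96.7% and 99.8% of genes of like level. Junb was among the steadiest at 0.075, where 3.38% of like genes had a lower SD. Deviations from the group means correlated over 17 libraries with r = 0.62 for Srf and Junb, 0.59 for Fos and Jun and 0.56 for Fosl1 and Jun, and lowest with r = -0.43 for Jun and Ier2. Of the 36 pairs 3 had r over 0.5 and the median was 0.08, while between 4.67 and 5.91% of all tested genes had r over 0.5 with a given member, so these pairs lie near the background. All pairs share library depth.

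For Srf, Egr1 and Jun the genes with the most similar pattern of log2 CPM over the 17 libraries were taken from 10717 tested genes of at least 5 CPM. For Srf they were Fscn1 (r = 0.90), which encodes the actin-bundling protein fascin, Zdhhc5 (0.84), a palmitoyltransferase, and Vash2 (0.82). For Jun they were Zfp607b, Cars, a cysteinyl-tRNA synthetase, and Fam117b (all 0.82). For Egr1 they were Ephb2 (0.76), an ephrin receptor, Enkd1 (0.74) and Rida (0.70). The stiffness difference is part of the pattern by which these 9 were chosen, so their own soft against stiff values are not given as results.

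In the average over AHA, 1 gene was called in each list of partners, of SRF and of AP-1, where 8.64% of all tested genes were called. Of 6 SRF cofactors, Elk3, a ternary complex factor that can repress its targets, was called lower on soft (-0.34 ± 0.098 SE, adjusted p = 0.0128 in edgeR). The others were Elk1 (0.20, adjusted p = 0.0831), Elk4 (-0.12), Mrtfa (-0.10), Mrtfb (-0.08) and Myocd (-0.12), none called, and the median of the list was -0.11. Of 12 other AP-1 and related bZIP genes 10 were tested, and Fosl2, which encodes FRA2, was called lower. It had 48.5 ± 3.11 CPM on soft against 58.7 ± 3.99 CPM on stiff substrates (SD, n = 8 and 9). Its log2 fold change was -0.27 ± 0.058 (SE, adjusted p = 0.000243 in edgeR). At single concentrations, 1 SRF cofactor was called lower on soft at low AHA and 0 at mid and high AHA. In the AP-1 list, 1 was called higher and 1 lower at low, 1 lower at mid and 0 at high AHA. Over all tested genes, 3.02% were called at low, 2.87% at mid and 0.885% at high AHA.

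Among the genes of the AP-1 list not called in the average, Fosb, another FOS-family gene, was 6.67 ± 2.15 CPM over the soft libraries (SD). Over the stiff libraries it was 4.50 ± 1.67 CPM (SD). Its averaged log2 fold change was 0.45 ± 0.18 (SE, adjusted p = 0.115 in edgeR). Maff (-0.24), Jdp2 (-0.19), Mafk (-0.07), Jund (-0.02), Batf3 (0.04), Mafg (0.04), Atf7 (0.05) and Atf2 (0.05) had smaller log2 fold changes, while Batf (8 counts on soft, 2 on stiff) and Batf2 (10 and 7) were not tested. Of the other EGR and NAB genes, Egr4 (-0.19), Nab1 (-0.12) and Nab2 (-0.24) were tested and not called, and Egr3, with 44 counts on soft and 47 on stiff substrates, was not tested.

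Of 36 other genes of the immediate early response, all tested, 2 were called higher and 7 lower on soft in the average over AHA, with a median of -0.08, where 4.02% of all tested genes were called higher and 4.63% lower. The lower tilt was not shared by every AHA concentration, since 0 were called higher and 7 lower at low (median -0.14), 2 and 2 at mid (median 0.01) and 0 and 1 at high AHA (median -0.12). Of the 13443 tested genes, 119 were called higher and 287 lower at low, 155 and 231 at mid and 60 and 59 at high AHA. In the average the called genes were led by size by Ccn1, a matricellular protein gene (-0.37 ± 0.035), Phlda1 (-0.35 ± 0.064), Btg2, an antiproliferative gene (0.25 ± 0.060), the kinase gene Pim1 (-0.23 ± 0.043) and Errfi1, an EGFR inhibitor (-0.23 ± 0.054; log2 fold change ± SE). Of 23 cytoskeletal targets of SRF and MRTF, 16 were called lower and 0 higher on soft in the average, with a median of -0.26, among them Tagln (-0.55), Acta2 (-0.52) and Vcl (-0.22). At single concentrations 14 were called lower at low, 14 at mid and 2 at high AHA, where the median was -0.14 and the calls over all tested genes were also fewest. Of 10 ERK feedback genes 5 were called lower and 0 higher in the average (3 lower at low, 3 at mid and 1 at high AHA). Etv4 (-0.55) and Dusp4 (-0.34) were the largest. These lists were chosen with earlier results of these data known, so their counts are description and not an independent test.

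**Figure D4:**
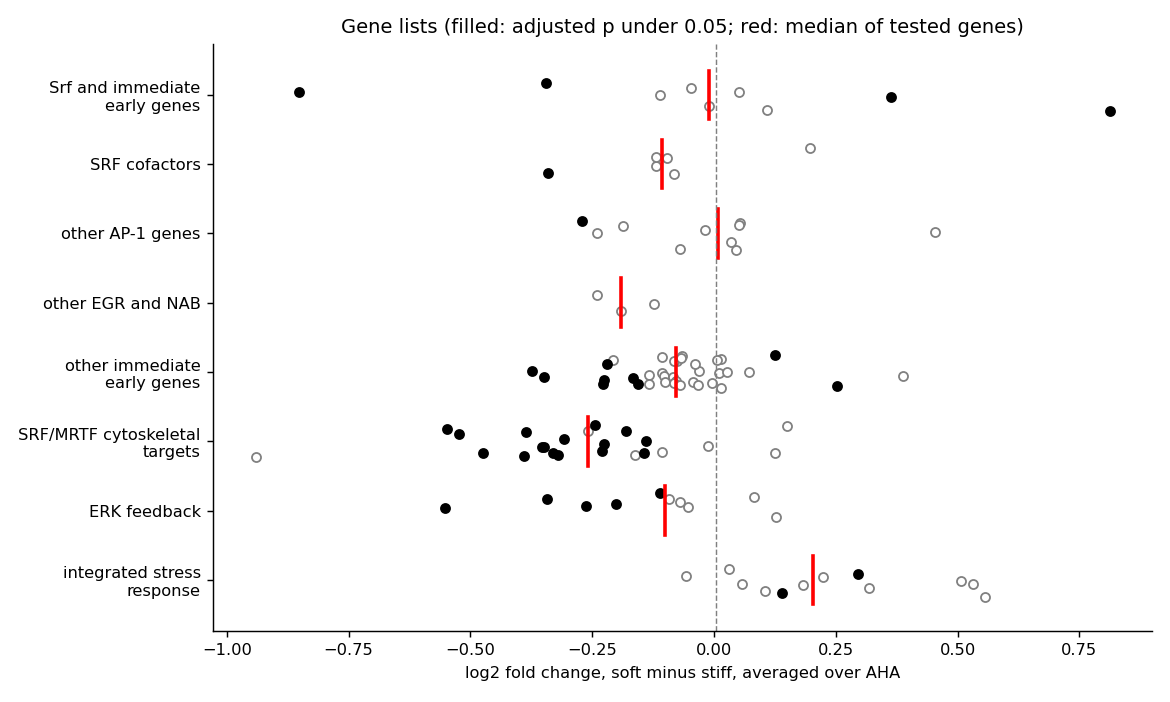
Average log2 fold change of soft against stiff substrates (x axis) for the tested genes of 8 lists (rows, points spread vertically for visibility); filled points have an adjusted p under 0.05, red bars are list medians and the dashed line is the median of all tested genes. The medians run from -0.26 for the SRF and MRTF cytoskeletal targets to 0.20 for the integrated stress response, with the 9 tested genes, Srf and 8 immediate early genes, at -0.01 and spread from -0.85 to 0.81.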

How the data were processed

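RNA sequencing was read from 18 libraries of E14 mESCs, 3 in each of 6 groups given by the labels. The authors prepared libraries from total RNA with a low-input kit. Per the labels, reads were trimmed with Trim Galore 0.4.4, aligned by GSNAP to mouse build mm10 (GRCm38) and assigned to Ensembl genes by HTSeq, and the deposited file holds these counts unnormalised. Whether HTSeq used strand is not given in the sources used here. HTSeq summary lines, 61.5 to 64.0% of each column, were left out of library sizes and tests.

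Symbols came from GENCODE M21. Protein-coding genes that edgeR 4.0.16 (R 4.3.3) kept at a filterByExpr minimum of 10 counts, 13443 in number, were TMM-scaled and entered a quasi-likelihood fit with 1 coefficient per group. Each comparison had its own Benjamini-Hochberg adjustment, and calls were made under 0.05. Intervals at 95% are the estimate plus or minus the normal quantile times its SE. The code was tested on simulated data. Nothing in the labels says that the libraries of a group were separate cultures, so p-values measure only the spread between libraries. In bulk RNA, more cells expressing a gene and more RNA per cell cannot be told apart.

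The members and lists were chosen with earlier results of these data known. Genes named were the 10 members, their SRF, AP-1, EGR and NAB partner lists, the 5 called other immediate early genes with the largest average change, and the 3 genes most like Srf, Egr1 and Jun; cytoskeletal, stress and ERK feedback genes were named as examples after their values were seen. Alternatives were RLE size factors, no scaling beyond the total, a filter of 2 counts, DESeq2 1.42.0, all 18 libraries, every biotype, only the groups compared, and leaving out each library. Promoters were read from RefSeq tables, and Python 3 code drew the plots.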

Additional observations from a re-analysis of the deposited data

Results flagged for a closer look

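In sets of 8 soft or 9 stiff libraries, 3 values of these genes lay far from the rest by Dixon's criterion, which chance meets in about 1 in 20 sets; 20 sets were looked at, and groups of 3 were not tested. Srf was 135 CPM in replicate 1 of the soft, mid AHA group, above the next soft library at 125 CPM. Jun was 79.4 CPM in replicate 3 of the soft, low AHA group, below the next soft library at 90.8 CPM. Jun was 98.4 CPM in replicate 1 of the stiff, low AHA group, above the next stiff library at 88.0 CPM.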

How the results depend on the processing

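Fos and Ier3 kept their direction and their averaged call in all 23 alternatives, with log2 fold changes from 0.72 to 0.95 and from -0.94 to -0.79. The number of members called lower on soft was 1 in place of 2 without scaling beyond the total, with DESeq2 and with every biotype, since Fosl1 was then not called, and 3 with all 18 libraries, where Srf was also called; over the 17 fits that left out a library it ranged from 1 to 3, and the number called higher from 1 to 2. At low AHA the count was 1 with DESeq2, which gave Ier3 no adjusted p, and 0 to 2 when a library was left out, at mid AHA 0 to 1, and at high AHA 0 with DESeq2, which gave no adjusted p for Fos, Ier3, Fosl1, Atf3, Egr1 and Junb, so that missing values fix most of this count, and 0 to 1 when a library was left out. For the AHA comparisons and the interaction it stayed at 0. Leaving out a soft, high AHA library leaves that group with 1 library, which is then assumed to vary like the others. Over those 17 fits Egr1 ranged from -0.0050 to 0.095 and Ier2 from -0.037 to 0.0064 on the log2 scale. Egr1 turned to -0.0050 without replicate 2 of the soft, high AHA group, and Ier2 to 0.0064 without replicate 2 of the soft, low, 0.0033 without replicate 3 of the soft, high and 0.00015 without replicate 1 of the stiff, high AHA group. Where no cause is named, the cause was not tested. Fitting only the groups compared gives no averaged value or interaction. No paired analysis was possible because the labels give no replicate numbers shared between groups. Depth limits Egr2 most, then Ier3.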
